A study of Mus musculus with 4 samples.

Results

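The RGS genes encode regulators of G protein signalling, and 10 of them (Rgs1, Rgs2, Rgs3, Rgs10, Rgs11, Rgs12, Rgs14, Rgs16, Rgs18 and Rgs19) are described here, out of 23356 gene rows in the authors' table. The rule picks them by gene symbol, but the list was drawn up with earlier results of these data known, and it holds every RGS gene of the lists used here that reached 1 FPKM. The cells were Th17 cells, CD4 T cells defined by production of IL-17 cytokines, from wild-type C57BL/6 mice labelled as 6 to 8 weeks old, grown for 48 h in vitro. The treated cultures were given SAA1, a recombinant murine serum amyloid protein of the acute phase, labelled as 2 ng/ml (2 libraries). The control cultures carry the abbreviation veh in their titles, read as vehicle, and the treatment label none (2 libraries). The study's title ties epithelial serum amyloid A to Th17 responses in tissue, so the question here is what adding SAA1 changes in the cultured cells. The sources used here do not say whether the libraries of a group came from separate cultures or mice. The differences between libraries on which the p-values can draw may therefore be only technical. The values given do not show how the authors' test set each gene's variance, so a p-value is not a measure of that gene's own spread.

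A receptor coupled to a heterotrimeric G protein loads GTP onto the Gα subunit, which then parts from Gβγ, and both parts signal. RGS proteins share a domain that speeds GTP hydrolysis by Gα, so that the signal ends sooner. In lymphocytes they are known for limiting responses to chemokine receptors, most of which use Gαi. The members fall into the R4 subfamily of mostly small proteins (Rgs1, Rgs2, Rgs3, Rgs16 and Rgs18), the RZ subfamily (Rgs19), the R7 subfamily, which pairs with Gβ5 (Rgs11), and the R12 subfamily (Rgs10, Rgs12 and Rgs14).

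Of the 10 RGS genes, 9 were expressed and tested, and Rgs12 was the single gene that passed the test. It fell to 4.34 FPKM in SAA1 cultures, against 7.48 FPKM in vehicle cultures. The most abundant was Rgs1, at 224 FPKM in SAA1 cultures and 270 FPKM in vehicle cultures. Rgs16, at 87.2 FPKM with SAA1 and 115 FPKM with vehicle, lay just outside the threshold. Rgs18 was listed at 0 in both groups. FPKM counts sequenced fragments relative to transcript length and to the library's mapped fragments, so that levels of different genes are on a scale per length. Each value is the authors' single value for a group of 2 libraries, so values per library and their spread cannot be shown.

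Rgs12 and its promoters are shown first, because it carries the call. Rgs12 encodes a large protein of several domains, which adds to the RGS domain a pair of Ras-binding domains and a GoLoco motif, a stretch that holds GDP-bound Gαi. Its locus lies on chromosome 5 from 34949448 to 35033593 (mm10, plus strand), and the value is for the gene as a whole. The GENCODE basic annotation gives 7 coding transcripts with 7 distinct starts and coding lengths between 1497 and 4353 bases. RefSeq promoter windows on build GRCm38.p6 were found for 2 starts, which lie 49.63 kb apart. GENCODE starts between them, such as 34964773 and 34989384, have no window here. The 250 bases before each start are printed 5′ to 3′ on the plus strand, in lower case. Capitals mark a match to the AP-1 motif TGANTCA.
Rgs12, distal start, chr5:34949198-34949447: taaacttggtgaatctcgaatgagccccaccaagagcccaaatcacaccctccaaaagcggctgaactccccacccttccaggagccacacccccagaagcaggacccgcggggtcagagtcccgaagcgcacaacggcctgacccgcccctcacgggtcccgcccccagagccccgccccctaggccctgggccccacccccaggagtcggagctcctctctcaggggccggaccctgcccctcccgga
Rgs12, internal start, chr5:34998828-34999077: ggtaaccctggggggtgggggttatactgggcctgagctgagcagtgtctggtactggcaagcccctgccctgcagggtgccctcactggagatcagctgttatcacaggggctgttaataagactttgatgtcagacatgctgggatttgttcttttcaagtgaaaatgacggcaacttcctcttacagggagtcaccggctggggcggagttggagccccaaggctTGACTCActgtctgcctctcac
The distal window has a GC content of 68.4% and the internal one 55.6%, beside a median of 52.4% over all 32851 windows of that length. The AP-1 match begins 22 bases before the internal start. Searched on both strands, TGANTCA was found in 6.75% of all windows, the STAT motif TTCNNNGAA in 7.02% and the cAMP response element TGACGTCA in 1.55%, with overlaps between motifs allowed. Windows were found for 6 of the 10 members, 10 windows in all. Of these, 1 holds TGANTCA, 0 hold TTCNNNGAA and 0 hold TGACGTCA. A match is a string of letters in a window and was not tested as a binding site. Group values per gene cannot be divided among the starts of Rgs12.

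Among the 9 tested members, Rgs12 had the log2 ratio that was largest in size. Its level of 4.34 FPKM in SAA1 cultures against 7.48 FPKM in vehicle cultures is a 1.72-fold decrease. Its log2 ratio was -0.79 ± 0.24, where the SE, here and below, is the ratio divided by the statistic of the authors' test. That SE was 0.1997 for Rgs1 and also 0.1997 for Rgs16, genes of unlike level. It cannot be read as a gene's own spread between libraries. The 95% interval of that log2 ratio, taken as 1.96 SE to each side, runs from -1.25 to -0.32. Here and below, such an interval treats the authors' statistic as normal, which the deposited p-values do not follow. A normal p of the statistic was 0.0009 for Rgs12, where Cuffdiff gave 5e-05, so coverage of 95% is not assured. By Cuffdiff, the authors' deposited table gives an adjusted p of 0.0019, which is the smallest it holds, and 300 genes share its unadjusted p of 5e-05. Among tested genes of at least 1 FPKM, 4.18% had a log2 ratio larger in size. In bulk RNA such as this, fewer cells of a type and less RNA per cell cannot be told apart. The Rgs12 locus overlaps the row of the microRNA gene Mir3097, listed at 0 in both groups, and no member's locus overlaps a row that reached 1 FPKM. Leaving out every row that shares a locus removes Rgs12 itself, after which 0 members were called lower, beside 3.15% of the rows kept.

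**Figure D1:**
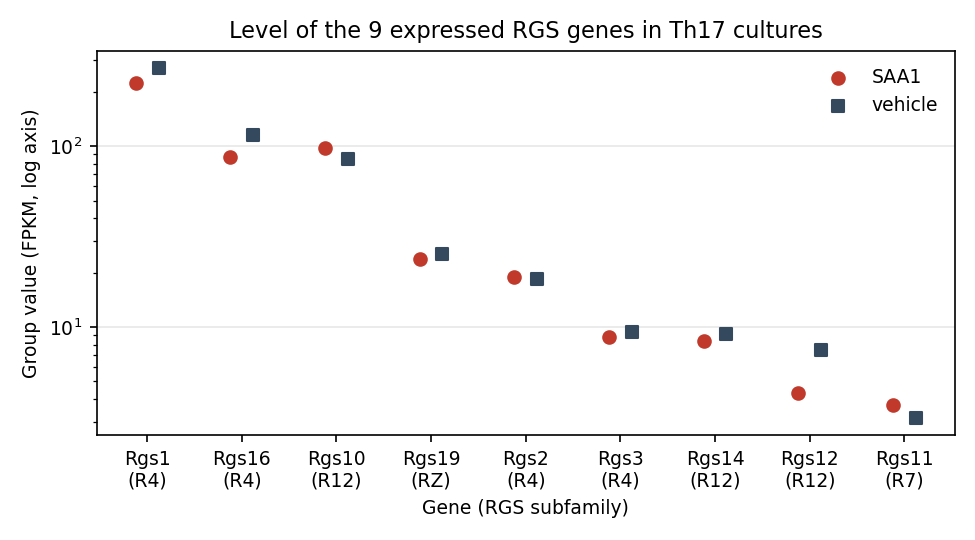
Level of the 9 expressed RGS genes, with the authors' group value in FPKM on a log axis and genes ordered by the mean of the group values; red circles are SAA1 and dark squares vehicle, with no error bar because each group has a single value. Levels span 3.72 to 224 FPKM with SAA1 and 3.15 to 270 FPKM with vehicle, the pairs of points lie close together except for Rgs12, and Rgs18, listed at 0, is not drawn.

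By the authors' deposited table at an adjusted p under 0.05, 0 of the 9 tested members were called higher, 1 was called lower and 8 were not called. Of all 11481 tested genes, 6.52% were called, 3.97% higher and 2.55% lower. A single call among 9 genes is too few to set apart from those shares. At an unadjusted p under 0.05 Cuffdiff had 2 members, Rgs12 and Rgs16, both with lower values in SAA1 cultures, beside 15.8% of all tested genes. For the 9 tested members the median log2 ratio was -0.09, beside -0.02 over the 10701 rows of at least 1 FPKM. SAA1 values were below vehicle values for 6 of the 9 and above for 3.

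**Figure D2:**
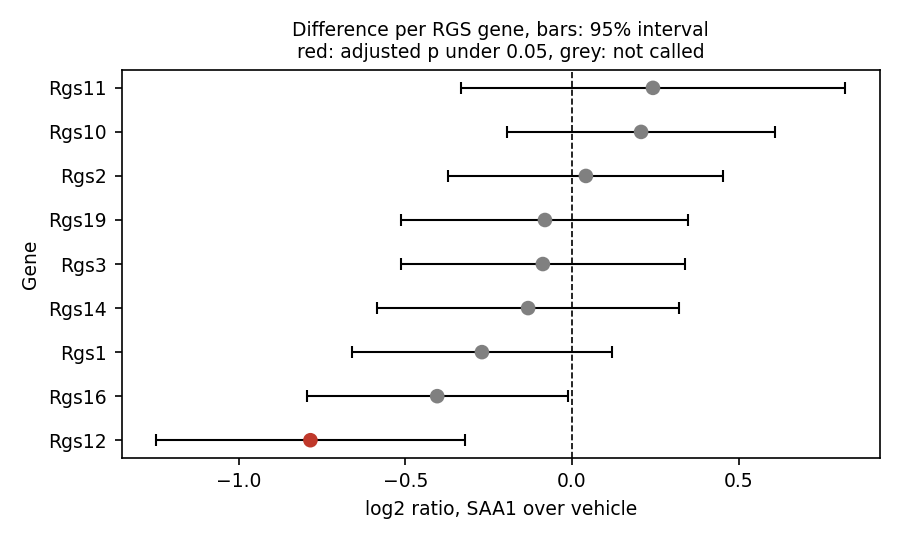
Log2 ratio of SAA1 over vehicle per RGS gene, with bars of 1.96 SE to each side, the SE being the ratio divided by the authors' statistic; red marks an adjusted p under 0.05. Rgs12 at -0.79 and Rgs16 at -0.40 have intervals below 0, and the intervals of the other 7 genes include 0.

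The R4 genes ranged from the most abundant transcript of the family to one listed at 0. Rgs1, whose product damps chemokine receptor signalling in lymphocytes, was the most abundant member in both groups, and 2.86% of expressed rows had a higher mean level. Its log2 ratio was -0.27 ± 0.20 (SE), with a 95% interval from -0.66 to 0.12. Cuffdiff's adjusted p for Rgs1 was 0.33 in the authors' deposited table. A decrease of more than 1.58-fold lies outside that interval.

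Rgs16, an RGS gene induced by activation of T cells and tied to their trafficking, had a log2 ratio of -0.40 ± 0.20 (SE) and a 95% interval from -0.80 to -0.01. Its level with SAA1 was 24.5% below that with vehicle. The adjusted p for Rgs16 was 0.057 by Cuffdiff in the authors' deposited table, and its unadjusted p was 0.004. By the adjusted p of Cuffdiff in the authors' deposited table, Rgs16 was the member nearest to the threshold of 0.05. Rgs12 was inside it at 0.0019, the smallest value held, and the next member outside it was Rgs1, at 0.33. With rows left out whose locus overlaps an expressed row, a choice made after the data were seen, the adjusted p for Rgs16 was 0.0498, so its side of the threshold depends on which rows are tested. Under that choice 3.22% of the rows kept were called lower, and at an adjusted p under 0.1, which also takes in Rgs16, 3.72% of tested genes were. A normal p of the deposited statistic gave Rgs16 an adjusted p of 0.56 and Rgs12 one of 0.044, just inside the threshold.

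Rgs2, which acts mainly on Gαq and so on the branch that runs through phospholipase C, was at 18.9 FPKM in SAA1 cultures and 18.4 FPKM in vehicle cultures. Its log2 ratio of 0.04 ± 0.21 (SE) is the smallest in size among the 9, with a 95% interval from -0.37 to 0.45. Rgs3, a gene with several promoters whose products act on Gαi and Gαq, was at 8.83 FPKM with SAA1 and 9.39 FPKM with vehicle. The log2 ratio of Rgs3 was -0.09 ± 0.22 (SE), from -0.51 to 0.34. The adjusted p was 0.97 for Rgs2 and 0.91 for Rgs3 by Cuffdiff in the authors' deposited table. Rgs18, the R4 gene of platelets and megakaryocytes, was listed at 0 in both groups and was not tested.

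The R12 genes gave values on both sides of 0. Rgs10, which encodes little more than an RGS domain and acts on the Gαi class, was at 97.6 FPKM in SAA1 cultures and 84.6 FPKM in vehicle cultures. Its log2 ratio was 0.21 ± 0.20 (SE), with a 95% interval from -0.19 to 0.61. Rgs14, which shares the Ras-binding domains and the GoLoco motif with Rgs12, was at 8.33 FPKM with SAA1 and 9.12 FPKM with vehicle. The log2 ratio of Rgs14 was -0.13 ± 0.23 (SE), with an interval from -0.59 to 0.32, which overlaps that of Rgs12 between -0.59 and -0.32. Rgs10 and Rgs14 had adjusted p values of 0.57 and 0.82 by Cuffdiff in the authors' deposited table. The difference between the responses of Rgs12 and Rgs14 was not tested.

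Rgs19, also known as GAIP, the RZ gene of the set, was at 23.9 FPKM in SAA1 cultures and 25.2 FPKM in vehicle cultures, a log2 ratio of -0.08 ± 0.22 (SE). Rgs11, the R7 gene, was the least abundant of the 9, at 3.72 FPKM with SAA1 and 3.15 FPKM with vehicle. Its log2 ratio of 0.24 ± 0.29 (SE) has the widest interval of the set, from -0.33 to 0.82. Rgs19 and Rgs11 had adjusted p values of 0.92 and 0.68 by Cuffdiff in the authors' deposited table.

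**Figure D3:**
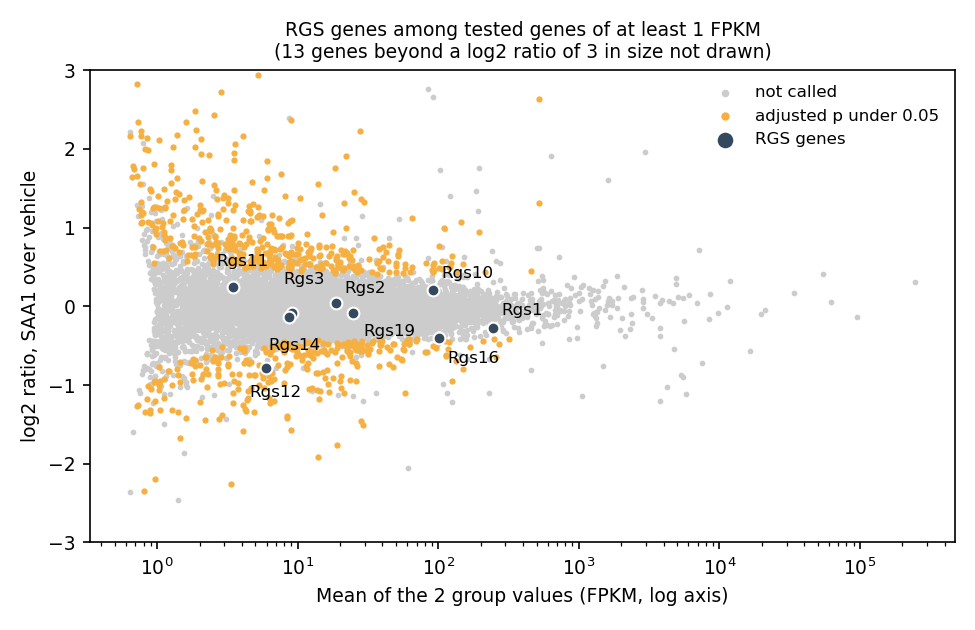
Each point is a tested gene of at least 1 FPKM, with the mean of the group values in FPKM on a log axis and the log2 ratio of SAA1 over vehicle; orange marks an adjusted p under 0.05, grey the other genes and dark points the RGS genes, and 13 genes beyond a log2 ratio of 3 in size are not drawn. Rgs12 lies at -0.79 among the called genes and the other 8 members lie within the grey band or at its edge.

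The order of the members by level was almost the same in both groups. With SAA1 it ran from Rgs1 through Rgs10, Rgs16, Rgs19, Rgs2, Rgs3, Rgs14 and Rgs12 to Rgs11, and with vehicle it was the same but for Rgs16, which stood above Rgs10. Without values per library it cannot be said which neighbours in that order differ beyond their spread, and the exchange of Rgs10 and Rgs16 was not tested. Rgs1 exceeded Rgs11 by 60.1-fold in SAA1 cultures and by 85.7-fold in vehicle cultures. The summed level of the 10 members was 477 FPKM with SAA1 and 543 FPKM with vehicle. The R4 genes made up 71.1% of that sum with SAA1 and 76.1% with vehicle, and the R12 genes 23.1% with SAA1 and 18.6% with vehicle. Rgs1 alone made up 46.9% with SAA1 and 49.7% with vehicle.

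Of the 5 R4 members, 4 lie on chromosome 1. Rgs2 (143999338 to 144004149), Rgs1 (144244669 to 144249104) and Rgs18 (144752841 to 144775421) share a block of 776.084 kb on mm10. Rgs13, an R4 gene of germinal centre B cells, lies between Rgs2 and Rgs1, and these are the 4 gene rows that lie wholly inside the block. Their levels ran from 0 for Rgs18 to those of Rgs1, with Rgs13 at 0.0778 FPKM in SAA1 cultures and 0.0666 FPKM in vehicle cultures. Rgs16 (153740353 to 153745468) lies beside Rgs8, which was at 0.0693 FPKM with SAA1 and 0.105 FPKM with vehicle. Near neighbours of this family differed widely in level in both groups.

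**Figure D4:**
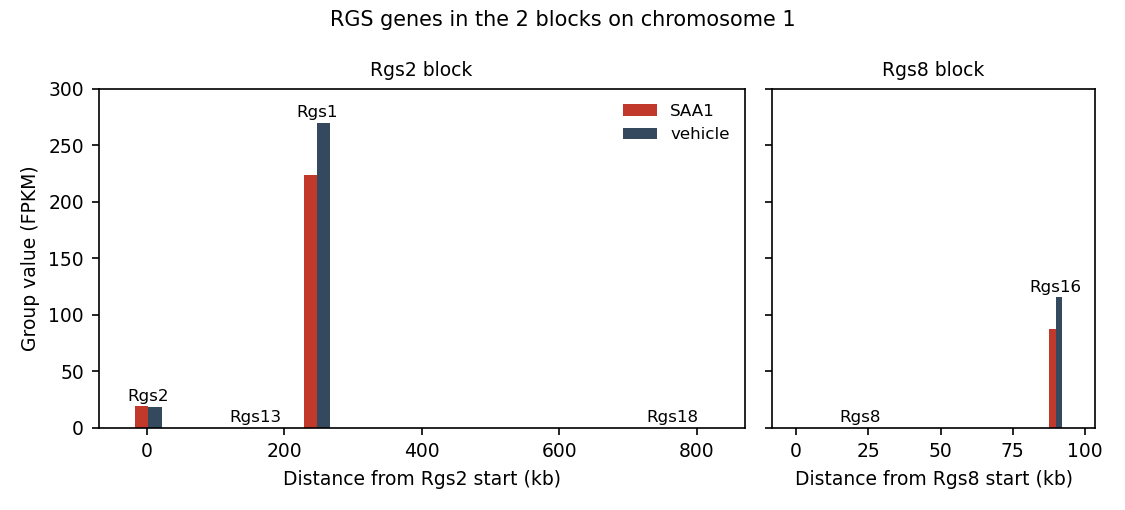
RGS genes in their blocks on chromosome 1, with the distance in kb from the start of the first gene and the group value in FPKM; red bars are SAA1 and dark bars vehicle, centred on each gene with a width that is not the gene's. Rgs1 stands at 224 FPKM with SAA1 and 270 FPKM with vehicle between Rgs13 and Rgs18, which have no visible bar, and Rgs16 stands at 87.2 FPKM with SAA1 and 115 FPKM with vehicle beside Rgs8, which has none.

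The other members lie on 6 further chromosomes. Rgs3 spans chromosome 4 from 62559847 to 62703019, Rgs10 chromosome 7 from 128373625 to 128418172 and Rgs19 chromosome 2 from 181688423 to 181693924. Rgs11 spans chromosome 17 from 26202962 to 26211324 and Rgs14 chromosome 13 from 55369732 to 55384687. These positions cover exons and introns, and all 10 overlap the RefSeq position of the same symbol on GRCm38.

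The remaining genes of the family stayed under 1 FPKM. Of 13 further RGS genes and their binding proteins, 12 have a row, and 0 of the 12 reached 1 FPKM or were tested by the authors. The highest was Rgs9, an R7 gene of retina and striatum, at 0.288 FPKM with SAA1 and 0.221 FPKM with vehicle. Of the 12, 3 were listed at 0 in both groups. Proteins that carry a related RGS homology domain were mostly expressed, and none was called. Among all tested genes, 6.52% were called by Cuffdiff in the authors' deposited table and 15.8% had an unadjusted p under 0.05. Of 13 tested genes of that list, 0 were called and 1 had such an unadjusted p. The largest log2 ratios were 0.33 for Snx14, a sorting nexin at 11.2 FPKM with SAA1 and 8.89 FPKM with vehicle, and 0.27 for Axin1, a scaffold of Wnt signalling at 29.0 FPKM with SAA1 and 24.0 FPKM with vehicle. The list's 12 expressed genes had a median log2 ratio of 0.02.

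The Gα subunits, the substrates of RGS proteins, held a single call. Gna15, a Gαq-class subunit of blood cells, fell to 3.20 FPKM with SAA1, against 5.83 FPKM with vehicle (log2 ratio -0.87 ± 0.28 SE). Gnai2, the main Gαi of lymphocytes, was at 191 FPKM in SAA1 cultures and 180 FPKM in vehicle cultures. Gnaq was at 2.59 FPKM with SAA1 and 2.74 FPKM with vehicle, in a locus shared with another row. Gna12 was at 8.79 FPKM with SAA1 and 10.9 FPKM with vehicle. Of 10 tested Gα genes, 0 were called higher and 1 lower by Cuffdiff in the authors' deposited table, where the adjusted p of Gna15 was 0.0047. Among all tested genes 3.97% were called higher and 2.55% lower, shares from which a single call cannot be set apart. With a normal p of the deposited statistic the adjusted p of Gna15 was 0.079, outside the threshold. The median log2 ratio of the 9 expressed ones was -0.08.

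The Gβ and Gγ genes held 1 call in each direction. Gnb5, which encodes the Gβ5 partner of R7 proteins, rose to 8.35 FPKM with SAA1, against 5.52 FPKM with vehicle (log2 ratio 0.60 ± 0.25 SE). Rgs11, the R7 gene expressed here, was not called. Gng10, a Gγ subunit, fell to 94.6 FPKM with SAA1, against 128 FPKM with vehicle (log2 ratio -0.44 ± 0.20 SE). Of 11 tested genes 1 was called higher and 1 lower by Cuffdiff in the authors' deposited table, at an adjusted p of 0.017 for Gnb5 and 0.038 for Gng10. Among all tested genes 3.97% were called higher and 2.55% lower, and so few calls cannot be set apart from those shares. The median of the 9 expressed Gβ and Gγ genes was -0.23.

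Arrestins and the other binding partners of Gα gave a single call. Arrb1, encoding β-arrestin that uncouples receptors from G proteins, rose to 9.67 FPKM with SAA1, against 5.71 FPKM with vehicle (log2 ratio 0.76 ± 0.21 SE). The Arrb1 locus overlaps the row of a microRNA gene, Mir326, listed at 0 in both groups, and Arrb1 drops out where rows sharing a locus are left out. Gpsm1, a GoLoco gene whose locus also overlaps another row, was at 7.78 FPKM with SAA1 and 6.68 FPKM with vehicle. Of 7 tested genes 1 was called higher and 0 lower by Cuffdiff in the authors' deposited table, with an adjusted p of 0.0019 for Arrb1. Of all tested genes 3.97% were called higher and 2.55% lower, shares from which a single call cannot be set apart. The median of the 7 genes of this list was 0.06.

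**Figure D5:**
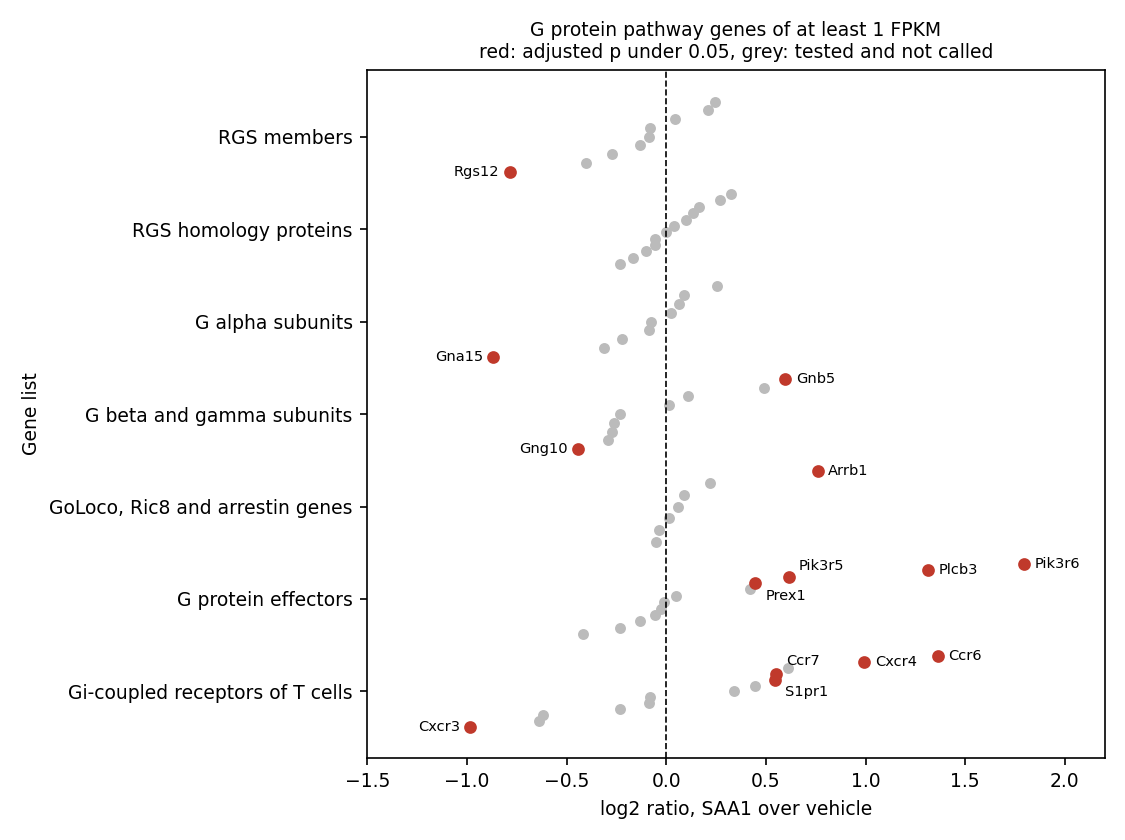
Log2 ratio of SAA1 over vehicle for tested genes of at least 1 FPKM in 7 lists of the G protein pathway, each point a gene, red and named where the adjusted p is under 0.05. Rgs12 at -0.79 is the red point of the RGS genes, Gna15 at -0.87 that of the Gα genes, and the effectors have 4 red points, all to the right of 0.

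Among effectors that answer to released G protein subunits, the called genes were higher with SAA1. Plcb3, a phospholipase C, rose to 4.54 FPKM with SAA1, against 1.83 FPKM with vehicle (log2 ratio 1.31 ± 0.25 SE). Both regulatory subunits of the PI3Kγ kinase, through which Gβγ engages it, rose. Pik3r6 reached 1.94 FPKM with SAA1, against 0.559 FPKM with vehicle (1.80 ± 0.37 SE on the log2 scale), and Pik3r5 reached 6.51 FPKM, against 4.25 FPKM (0.61 ± 0.23 SE). Prex1, a Rac activator driven by Gβγ, rose to 10.03 FPKM with SAA1, against 7.37 FPKM with vehicle (0.45 ± 0.21 SE on the log2 scale). Pik3cg, the catalytic subunit of PI3Kγ, was at 5.85 FPKM with SAA1 and 5.97 FPKM with vehicle and was not called. Of 13 tested effectors 4 were called higher and 0 lower by Cuffdiff in the authors' deposited table, beside 3.97% higher and 2.55% lower among all tested genes. The effector list was written with earlier results of these data known, so its share is not that of genes picked blind to the data. The median log2 ratio of the 12 expressed effectors was 0.02. The adjusted p was 0.0019 for Plcb3 and Pik3r6, 0.0047 for Pik3r5 and 0.045 for Prex1 in that deposited table by Cuffdiff.

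Receptors of T cells that couple to Gαi, whose signals RGS proteins shorten, held 4 genes called higher and 1 lower among 15 tested by Cuffdiff in the authors' deposited table. Cxcr4, the CXCL12 receptor, rose to 4.60 FPKM with SAA1, against 2.31 FPKM with vehicle (log2 ratio 0.99 ± 0.33 SE). Ccr6, Ccr7 and S1pr1 were the others called higher, with log2 ratios of 1.36, 0.55 and 0.54, and Cxcr3 was called lower at -0.98. The median log2 ratio of the 13 expressed receptors was 0.34. All these lists were written with earlier results of these data known, so their shares are not those of genes picked blind to the data. Over the 69 tested genes of all these lists outside the RGS members, 10 were called higher and 3 lower, beside 3.97% and 2.55% of all tested genes. With a normal p of the deposited statistic the numbers were 4 higher (Arrb1, Ccr6, Pik3r6 and Plcb3) and 1 lower (Cxcr3), beside 1.36% and 0.807% of all genes with a statistic.

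The cell label was checked against defining markers. All 8 markers of T cells and Th17 cells were expressed, at 28.2 to 898 FPKM with SAA1 and 39.1 to 180 FPKM with vehicle. The 9 myeloid markers with a row summed to 1.60 FPKM with SAA1 and 2.15 FPKM with vehicle, with C1qa and S100a9 at 0 in both groups. Most of that sum was Cd68, at 1.05 FPKM with SAA1 and 1.58 FPKM with vehicle. The 6 B cell markers summed to 1.59 FPKM with SAA1 and 2.06 FPKM with vehicle, with no marker at 0 in both groups. The 8 platelet and megakaryocyte markers summed to 0.808 FPKM with SAA1 and 0.892 FPKM with vehicle, with Gp1bb, Gp6 and Treml1 at 0 in both groups beside Rgs18. Most of that sum was Gp1ba, at 0.540 FPKM with SAA1 and 0.575 FPKM with vehicle. The 6 markers of NK and CD8 cells summed to 36.3 FPKM with SAA1 and 38.6 FPKM with vehicle, of which Nkg7 made 31.4 FPKM with SAA1 and 33.5 FPKM with vehicle. Most of the rest was Cd8b1, at 4.24 FPKM with SAA1 and 4.32 FPKM with vehicle. The part of these markers in the RGS values was not tested. Depth per library is unknown from the table, and so no counting interval is given.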

How the data were processed

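Total RNA of 4 libraries was made into TruSeq libraries, per the labels' protocols. TopHat2 and Cuffdiff, and the builds mm9 and mm10, are named in the submitters' processing notes. How libraries were scaled, and whether strand was used, the labels and headers do not state. The authors deposited 1 FPKM value per group for each gene, with a test statistic (a score), a p-value and an adjusted p-value, per the file headers. No value per library was given, so the count and limma tests foreseen were replaced by the authors' test, at an adjusted p under 0.05 over all 11481 tested rows. The adjusted p was recomputed by the Benjamini-Hochberg method with a largest gap of 5.23e-07. The log2 ratio was recomputed from the FPKM values, and the SE was taken as that ratio over the statistic. The step was tested on simulated data with normal noise, a common SE and calls by a normal p. Such data cannot show how the deposited p-values behave. Of rows with a RefSeq symbol 99.0% overlapped its GRCm38 position, and mm10 coordinates are printed, counted from 1. Promoter windows come from RefSeq (GRCm38.p6), and transcripts from GENCODE. Python 3.11.15, pandas 2.3.3 and statsmodels 0.14.6 were used.

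The members and gene lists were chosen with earlier results of these data known. Named were all members, Gnai2 and Gnaq, and of each list the called genes by adjusted p, at most 6, or with fewer than 2 called the 2 genes with the largest log2 ratio. Rgs8, Rgs9, Rgs13, Pik3cg, the markers listed at 0, Nkg7, Cd8b1, Cd68 and Gp1ba lie outside that rule and were picked with their values in view. Alternatives were the threshold, a fold or FPKM minimum, other adjustments, a normal p of the statistic, rows sharing a locus, centring and pseudocounts.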

Additional observations from a re-analysis of the deposited data

How the results depend on the processing

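Rgs12 was called lower under 9 of 10 other settings, with adjusted p values from 0.0017 to 0.044. It gives no value where every row that shares a locus is left out, since its own row then goes, and the number of members called lower was 0. At an adjusted p under 0.1, and with rows overlapping an expressed row left out (added after the data were seen), 2 members were called lower, Rgs16 being the second. Of the pathway genes, 6 were called higher and 2 lower (Cxcr3 and Gna15) under the Benjamini-Yekutieli adjustment, beside 2.04% and 1.15% of all tested genes, and 4 higher and 1 lower with a normal p of the statistic; the cause was not tested. With a pseudocount of 1 the log2 ratio of Rgs12 was -0.67. Settings that change the p rule or the rows tested leave a member's log2 ratio as it was, so only its side of the threshold could change. Centring and pseudocounts give no adjusted p, and under them the ratios moved by less than 1 SE. Of 89 member values under alternatives, 87 were unchanged in this sense, and the other 2 are the calls of Rgs16. No paired analysis was possible because the table gives a single value per group, and for the same reason no replicate could be left out and the alternatives for counts or FPKM per library were not run. Depth is unknown.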
